A study of Mus musculus with 6 samples.

Results

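The PAF1 complex travels with RNA polymerase II through the body of genes, and its 6 subunit genes *Paf1*, *Ctr9*, *Leo1*, *Cdc73*, *Rtf1* and *Wdr61* were followed here in mouse acute myeloid leukemia cells with and without deletion of *Phf6*. The 6 genes were picked by name from the 54532 genes of the deposited expression table, and all 6 were present. They were picked because the complex is a known partner of PHF6, a nuclear protein that is lost by mutation in some human leukemias. In the *VC Phf6,RE9a* group, cells carried *Vav1-Cre;Phf6 fl/y*, in which the *Vav1* promoter drives Cre in blood-forming cells and Cre deletes the floxed *Phf6* allele. Cells of the *WT Phf6,RE9a* group carried *Phf6 fl/y* without Cre, so the floxed allele itself was shared and Cre was not. All cells of both groups also carried a GFP-marked retrovirus for RE9a (RUNX1-ETO9a), a fusion oncoprotein of myeloid leukemia. Donor cells were Lin- fetal liver cells of male embryos, grown as leukemia by serial transplantation into male recipients, and GFP+ cells were sorted from bone marrow. RNA sequencing gave 3 libraries per group, with replicate numbers 1, 2 and 3 for the *WT Phf6,RE9a* group, called WT below, and 11, 12 and 13 for the *VC Phf6,RE9a* group, called VC. Neither the labels nor the methods say whether the 3 libraries of a group came from separate leukemias or animals, so the p-values measure only the spread between these libraries.

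The subunits divide the work of the complex. PAF1 and LEO1 form a dimer that contacts the polymerase, and CTR9 is the scaffold of tetratricopeptide repeats on which the other subunits assemble. CDC73, also called parafibromin, is a tumor suppressor of the parathyroid. RTF1 promotes transfer of ubiquitin to histone H2B, a mark that precedes methylation of histone H3 at lysines of active genes, and it binds the complex less tightly than the others. WDR61, also named SKI8, is a small WD-repeat protein that is shared with the cytoplasmic SKI complex, which feeds RNA to the exosome. In blood, the complex is best known as a partner of MLL fusion proteins and of *HOXA9* and *MEIS1* expression in myeloid leukemia.

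The level of *Phf6* was examined first. Read counts of the gene were 1044, 827 and 1142 in WT replicates 1, 2 and 3, and 388, 314 and 331 in VC replicates 11, 12 and 13. The groups did not overlap, and the difference was -1.66 as log2 fold change (standard error 0.13) with an adjusted p of 9.32e-05 in the quasi-likelihood test of edgeR. *Phf6* RNA thus remained in VC cells, at a fold of 0.315 of WT cells, and its source was not tested. Total counts per library ran from 15675358 to 16817994, and levels are given in CPM, the counts scaled to library size by TMM, in which 3 counts came to 0.175 to 0.204 CPM. Between the groups, 44.2% of the 14169 genes tested passed an adjusted p of 0.05 with edgeR, 21.5% higher and 22.7% lower in VC cells. Marker genes of other cell types differed too. The summed level of 6 mast cell and basophil markers was 11661 to 18379 CPM in WT cells and 1188 to 1693 CPM in VC cells. That of 5 erythroid markers was 1285 to 2019 CPM and 4618 to 5441 CPM. Of the 6 mast cell and basophil markers 5 were lower and 1 did not pass, and all 5 erythroid markers were higher. Of 8 myeloid and progenitor markers 3 were lower, 2 were higher and 3 did not pass, with a median log2 fold change of 0.39. Their sum was 2320 to 3722 CPM in WT cells and 480 to 697 CPM in VC cells. It was mostly *Kit*, the stem cell factor receptor gene (mean 2420 and 273 CPM), which was lower in VC cells. The 2 higher genes were *Mpo* (1.88) and *Itgam* (2.31), and the lowest log2 fold change of the list was -4.63. The 5 B cell markers summed to 0.611 to 1.10 CPM and 8.50 to 24.6 CPM, and all 4 tested were higher in VC cells. The 6 T cell markers summed to 1.10 to 1.57 CPM and 6.30 to 8.80 CPM and the 5 stromal markers to 1.22 to 1.45 CPM and 5.17 to 5.71 CPM, and 1 gene of each list was tested and higher (*Lck* and *Cxcl12*). None of the markers was at 0 in all libraries. In bulk RNA, fewer cells of a type and less RNA per cell cannot be told apart, and the part of these cell types in the results on the PAF1 complex was not tested.

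Promoter sequences are shown for *Cdc73* and *Rtf1*, the subunit genes with a lower level in VC cells, and for *Paf1*, which gives the complex its name and did not pass the test. Windows of 300 bases, from 250 before to 50 after the start of the gene, were taken from RefSeq on GRCm38.p6, which held 4 of the 6 genes (*Cdc73*, *Rtf1*, *Paf1* and *Leo1*, but not *Ctr9* and *Wdr61*). Capitals mark matches on either strand to GGGCGG (the GC box), to CCAAT (the box of that name) or to CCGGAA (the ETS core), and all sequences read 5′ to 3′ along the strand of the gene. The window of *Cdc73* lies at chr1:143702844-143703143 on the minus strand, that of *Rtf1* at chr2:119674818-119675117 on the plus strand, and that of *Paf1* at chr7:28392746-28393045 on the plus strand.
Cdc73: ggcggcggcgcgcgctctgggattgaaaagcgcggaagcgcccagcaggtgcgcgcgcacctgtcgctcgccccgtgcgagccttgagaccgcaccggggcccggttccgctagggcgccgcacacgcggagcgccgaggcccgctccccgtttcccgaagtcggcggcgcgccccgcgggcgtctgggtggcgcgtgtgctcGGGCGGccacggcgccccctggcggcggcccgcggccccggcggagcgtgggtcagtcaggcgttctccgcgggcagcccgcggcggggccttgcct
Rtf1: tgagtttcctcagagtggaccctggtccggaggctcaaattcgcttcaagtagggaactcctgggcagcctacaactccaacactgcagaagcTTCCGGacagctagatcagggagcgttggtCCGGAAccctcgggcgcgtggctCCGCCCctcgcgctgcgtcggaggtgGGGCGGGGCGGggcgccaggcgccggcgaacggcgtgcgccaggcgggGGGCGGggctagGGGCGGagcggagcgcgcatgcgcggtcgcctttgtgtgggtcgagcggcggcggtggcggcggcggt
Paf1: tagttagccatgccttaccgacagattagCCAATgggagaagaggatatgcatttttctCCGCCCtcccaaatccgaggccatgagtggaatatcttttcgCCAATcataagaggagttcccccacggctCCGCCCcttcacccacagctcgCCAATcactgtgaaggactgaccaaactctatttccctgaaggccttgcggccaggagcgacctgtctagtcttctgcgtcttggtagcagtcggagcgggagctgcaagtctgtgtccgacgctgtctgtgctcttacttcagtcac

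G and C made up 79.7% of the *Cdc73* window, with 54 CpG dinucleotides, and 71.3% of that of *Rtf1*, with 38 CpG. For *Leo1* the values were 61.3% and 26 CpG, and for *Paf1* 54% and 14 CpG. The medians of all 32851 windows were 52.7% and 7 CpG. Whether these values go with the change in VC cells was not tested, and *Wdr61*, the gene that was higher, had no window. A GC box, the binding sequence of SP1-type factors, was matched once in *Cdc73*, 5 times in *Rtf1* and 2 times each in *Paf1* and *Leo1*, and a pair of the matches in *Rtf1* share 1 base. It was present in 35.7% of all windows. The *Rtf1* window also held 2 ETS cores, present in 14.9% of all windows. In the *Paf1* window there were 3 CCAAT boxes, a motif of 37.4% of windows. The *Leo1* window held 1 match to the RUNX core TGTGGT, the sequence bound by the RUNX1 part of the RE9a protein, which was present in 16.8% of windows. No match to the E-box CACGTG (7.15% of windows) or to TATAAA (13.6%) was found in the 4 windows. These matches describe the letters of the windows and do not show binding.

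*Wdr61*, the subunit shared with the SKI complex, was higher in VC cells, *Cdc73* and *Rtf1* were lower, and *Paf1*, *Ctr9* and *Leo1* did not pass the test. All 6 genes passed the filter on low counts. The count of 3 of 6 called stands beside 44.2% over all genes tested. VC and WT libraries lay fully apart for the same 3 genes, beside 57.3% over all genes (28.9% higher and 28.4% lower in VC). The median log2 fold change of the 6 genes was -0.03, and that of all genes tested was 0.01. The absolute log2 fold change of *Wdr61* was at the percentile 66.2 of all genes tested. Those of *Cdc73* and *Rtf1* were at 42.1 and 35.7, below the median absolute log2 fold change of 0.44 over all genes tested.

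**Figure D1:**
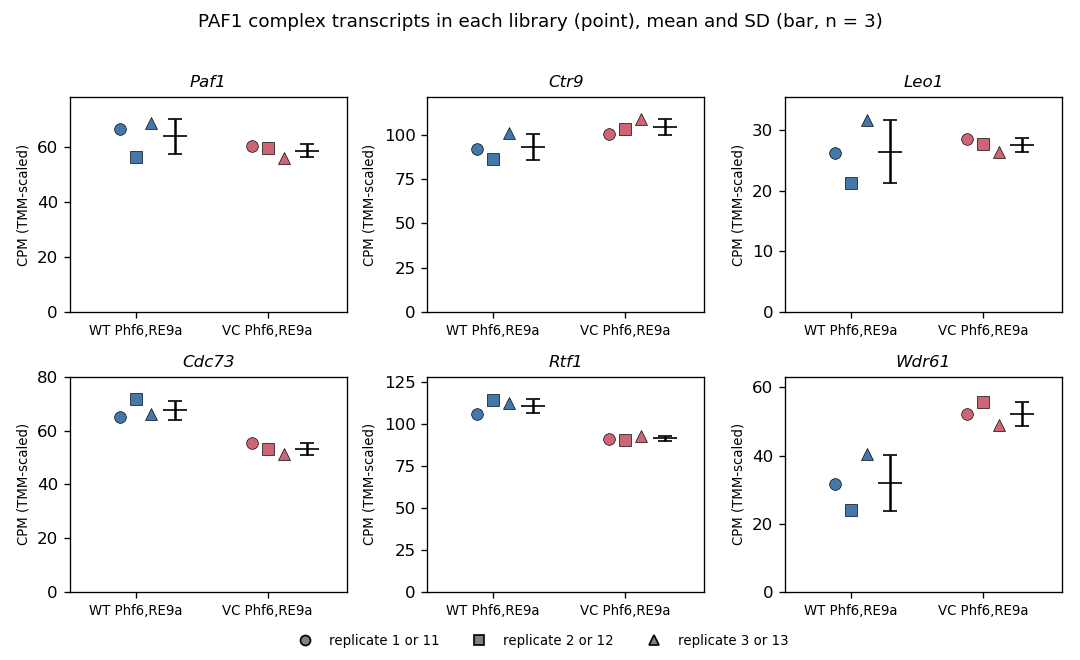
CPM scaled by TMM (vertical axis, from 0) of each PAF1 complex gene in 3 WT libraries (blue) and 3 VC libraries (red); each point is 1 library, and the bars are the mean and SD (n = 3). The groups lie apart for *Cdc73*, *Rtf1* and *Wdr61* and overlap for *Paf1*, *Ctr9* and *Leo1*.

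*Paf1* (ENSMUSG00000003437, chr7:28392951-28399388, plus strand, GRCm38) encodes the subunit after which the complex is named. Its level was 66.7, 56.6 and 68.8 CPM in WT replicates 1, 2 and 3 and 60.4, 59.8 and 56.0 CPM in VC replicates 11, 12 and 13. The lowest level of all was in VC replicate 13, and WT replicate 2 lay among the VC libraries, so the groups overlapped. The log2 fold change was -0.12 (95% interval -0.35 to 0.11, adjusted p = 0.345 with edgeR). The interval leaves room for a fold of 0.782 to 1.08.

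*Leo1*, the gene of the dimer partner of PAF1 (ENSMUSG00000042487, chr9:75441524-75466432, plus strand) had 26.2, 21.3 and 31.7 CPM in WT cells and 28.5, 27.7 and 26.3 CPM in VC cells. All 3 VC libraries lay between the lowest and the highest WT library. The log2 fold change was 0.06 (95% interval -0.30 to 0.42, adjusted p = 0.780 with edgeR), and it turned to -0.08 without WT replicate 2.

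The scaffold gene *Ctr9* (ENSMUSG00000005609, chr7:111028951-111056377, plus strand) had 91.7, 86.4 and 101 CPM in WT cells. In VC cells its level was 100.3, 103 and 109 CPM. Only WT replicate 3 reached into the range of the other group. The log2 fold change was 0.16 (95% interval -0.04 to 0.37, adjusted p = 0.165 with edgeR), and it passed the threshold only when libraries were scaled by total counts alone (0.31, adjusted p = 0.0403).

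*Cdc73* (ENSMUSG00000026361, chr1:143598800-143702893, minus strand), the parafibromin gene, had 65.1, 71.7 and 66.0 CPM in WT cells and 55.5, 53.2 and 51.2 CPM in VC cells. Every VC library was below every WT library. Means with SD over 3 libraries fell from 67.6 ± 3.57 CPM to 53.3 ± 2.17 CPM, a difference of -0.34 as log2 fold change (standard error 0.08, 95% interval -0.54 to -0.15, adjusted p = 0.0127 with edgeR). The call was lost without VC replicate 13 (-0.32, adjusted p = 0.0583), with scaling by total counts alone (-0.20, adjusted p = 0.119) and with limma on FPKM. The length of *Cdc73* encloses 2 genes on the other strand, *B3galt2*, a galactosyltransferase gene with 4 to 17 counts per library (log2 fold change -0.35, adjusted p = 0.627 with edgeR), and the pseudogene *Gm6397* with at most 5. Exons of *B3galt2* share 679 bases with exons of 1 of the 6 annotated *Cdc73* transcripts. *Cdc73* itself had 861 to 1091 counts, and how reads of the shared stretches were counted is not given in the sources used here.

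*Rtf1* (ENSMUSG00000027304, chr2:119675068-119735407, plus strand) encodes the subunit that promotes H2B ubiquitination. Its level was 106, 114 and 112 CPM in WT cells and 91.1, 90.4 and 92.9 CPM in VC cells. The VC libraries all lay below the WT libraries and close to each other. Means with SD over 3 libraries fell from 111 ± 4.44 CPM to 91.5 ± 1.29 CPM, a difference of -0.28 as log2 fold change (standard error 0.07, 95% interval -0.45 to -0.11, adjusted p = 0.0183 with edgeR). The spread of *Rtf1* within groups was small, at the percentile 1.63 of all genes. Leaving out VC replicate 11, 12 or 13 ended it (adjusted p = 0.0806, 0.0732 and 0.0593), as did scaling by total counts alone (-0.13, adjusted p = 0.259).

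*Wdr61* (ENSMUSG00000061559, chr9:54714735-54734519, minus strand) showed the largest change of the 6 genes. It had 486, 353 and 669 counts in WT replicates 1, 2 and 3 and 884, 957 and 822 counts in VC replicates 11, 12 and 13. In CPM these were 31.6, 23.9 and 40.5 against 52.2, 55.8 and 48.8. Every VC library was above the highest WT library. Means with SD over 3 libraries rose from 32.0 ± 8.28 CPM to 52.3 ± 3.46 CPM, a fold of 1.63 (95% interval 1.22 to 2.18), or 0.71 as log2 fold change (adjusted p = 0.0152 with edgeR, standard error 0.18). Unlike *Rtf1*, *Wdr61* varied within groups more than most genes, at the percentile 62.3, and its level in WT replicate 3 was closer to VC replicate 13 than to WT replicate 1. The call was lost without VC replicate 12 (0.66, adjusted p = 0.0555).

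**Figure D2:**
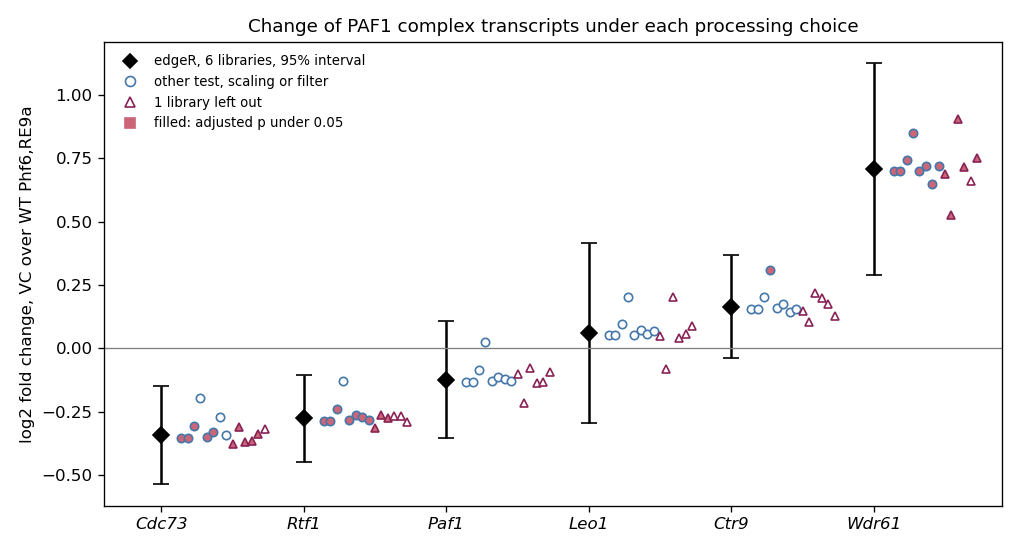
Log2 fold change of VC cells over WT cells (vertical axis) for the 6 genes; diamonds with bars give the edgeR estimate over 6 libraries and its 95% interval, circles the other tests, scalings and filters, triangles the estimates with 1 library left out, and filled circles and triangles an adjusted p under 0.05. *Wdr61* stayed between 0.53 and 0.90, *Cdc73* between -0.38 and -0.20 and *Rtf1* between -0.32 and -0.13, while *Paf1* and *Leo1* lie on both sides of 0.

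The 3′ end of *Wdr61* overlaps that of *Dnaja4*, a gene for a DNAJ-family cochaperone on the opposite strand. The shared stretch is 1581 bases at chr9:54714735-54716315, it is exonic in both genes, and it belongs to 1 of the 7 annotated *Wdr61* transcripts. *Dnaja4* had 3536, 2694 and 2928 counts in WT cells and 4434, 3316 and 3391 counts in VC cells. It had more counts than *Wdr61* in each library, and its groups overlapped (log2 fold change 0.16, standard error 0.15, adjusted p = 0.435 with edgeR). Whether counting used the strand is not given in the sources used here, so reads of the shared stretch may be counted for either gene, and the value of *Wdr61* is uncertain by that much. Counts over the whole genes do not give the reads of the shared stretch, and its part in the level of *Wdr61* was not tested. No other gene had a near-identical stretch of 150 bases or more to a protein-coding transcript of the 6 genes. Their other transcripts were not searched.

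The SKI complex is the other complex that contains WDR61. *Skiv2l*, which encodes its helicase, had 179, 191 and 170.4 CPM in WT cells and 139, 141 and 123 CPM in VC cells (log2 fold change -0.43, adjusted p = 0.0067 with edgeR, standard error 0.09). *Ttc37*, the gene of its tetratricopeptide scaffold, had 48.2, 49.5 and 55.4 CPM and 38.7, 41.4 and 40.5 CPM (-0.34, standard error 0.09, adjusted p = 0.0191). Both were lower in every VC library than in any WT library. *Hbs1l*, whose short form bridges the complex to the exosome or the ribosome, had 118, 129 and 119 CPM and 129, 117 and 120.1 CPM, with overlapping groups (0.01, 95% interval -0.18 to 0.19, adjusted p = 0.967). Of these 3 partner genes of WDR61, 2 were called lower and 1 did not pass the test. Over all genes tested, 22.7% were called lower and 28.4% had VC libraries fully below WT libraries. With 3 genes, these counts do not show a pattern of the SKI complex. The call of *Ttc37* was lost under scaling by total counts alone (-0.20, adjusted p = 0.186), with limma on FPKM and without VC replicate 11, 12 or 13 (adjusted p = 0.0865, 0.0541 and 0.0622).

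**Figure D3:**
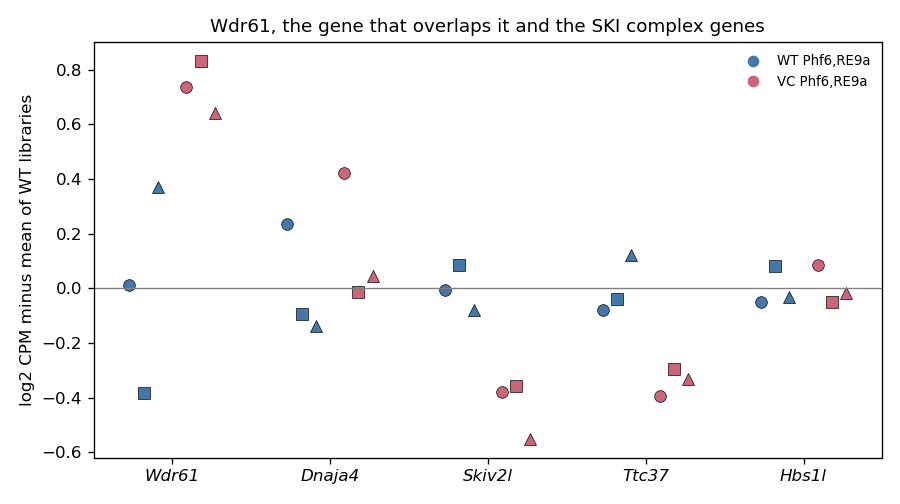
Log2 CPM of *Wdr61*, of the overlapping gene *Dnaja4* and of 3 SKI complex genes in each library, relative to the mean of the WT libraries (vertical axis); blue is WT cells, red is VC cells, and circle, square and triangle are replicates 1, 2 and 3 or 11, 12 and 13. *Wdr61* is higher and *Skiv2l* and *Ttc37* are lower in all 3 VC libraries, and *Dnaja4* and *Hbs1l* overlap.

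Levels were compared between the genes per length, in FPKM (fragments per kilobase of gene length, scaled to a library size set by the authors). Mean FPKM over 3 libraries was 18.5 ± 1.90 for *Paf1*, 19.2 ± 0.678 for *Rtf1*, 11.5 ± 0.875 for *Ctr9*, 6.81 ± 1.75 for *Wdr61*, 5.41 ± 1.05 for *Leo1* and 3.81 ± 0.194 for *Cdc73* in WT cells (SD, n = 3). In VC cells it was 16.9 ± 0.758 for *Paf1*, 15.8 ± 0.139 for *Rtf1*, 12.9 ± 0.499 for *Ctr9*, 11.1 ± 0.795 for *Wdr61*, 5.60 ± 0.242 for *Leo1* and 2.99 ± 0.130 for *Cdc73*. The order from *Paf1* through *Rtf1*, *Ctr9*, *Wdr61* and *Leo1* to *Cdc73* held in 5 of 6 libraries, and in WT replicate 2 *Rtf1* exceeded *Paf1*. The log2 ratio of *Paf1* to *Rtf1* was -0.06 ± 0.19 in WT cells, within its spread, and 0.10 ± 0.08 in VC cells, above 0 in all 3 libraries but by 0.0073 in VC replicate 13. Each of the other 14 of 15 pairs kept its order in all 6 libraries. The length used by the authors counts every annotated exon, including 9 transcripts of *Paf1* with a retained intron. Per kilobase of the longest coding transcript instead, *Leo1* was above *Wdr61* in all WT libraries and below it in all VC libraries, and *Ctr9* passed *Rtf1* in the same way.

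Shares within a library show how the subunits stood to each other and are not moved by scaling between libraries. The 6 genes summed to 60.3 to 70.4 FPKM in WT cells and 63.7 to 66.3 FPKM in VC cells, so the sums overlapped. The share of *Wdr61* was 10.4%, 8.44% and 12.2% of this sum in WT cells and 16.9%, 17.9% and 16.1% in VC cells, a mean difference of 6.63 percentage points. The share of *Rtf1* was 28.3%, 32.8% and 27.6% against 24.0%, 23.6% and 25.0%, and changed by -5.36 points. *Paf1* (-2.42 points), *Cdc73* (-1.29 points) and *Ctr9* (2.07 points) also had groups that did not overlap, and *Leo1* (0.372 points) overlapped. By an exact 2-sided permutation test, p was 0.1 for each of the 5 genes that did not overlap, the smallest p that 3 against 3 libraries allow, and 0.7 for *Leo1* (Benjamini-Hochberg adjusted over 6 tests, 0.12 and 0.7). The 6 shares make up one whole, so a higher share of one gene lowers the others, and *Paf1* and *Ctr9* did not pass the test in their own levels. On counts not divided by length, the groups overlapped for *Paf1* (exact permutation p = 0.3), and the share of *Cdc73* changed by -3.48 points and that of *Ctr9* by 3.30 points.

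**Figure D4:**
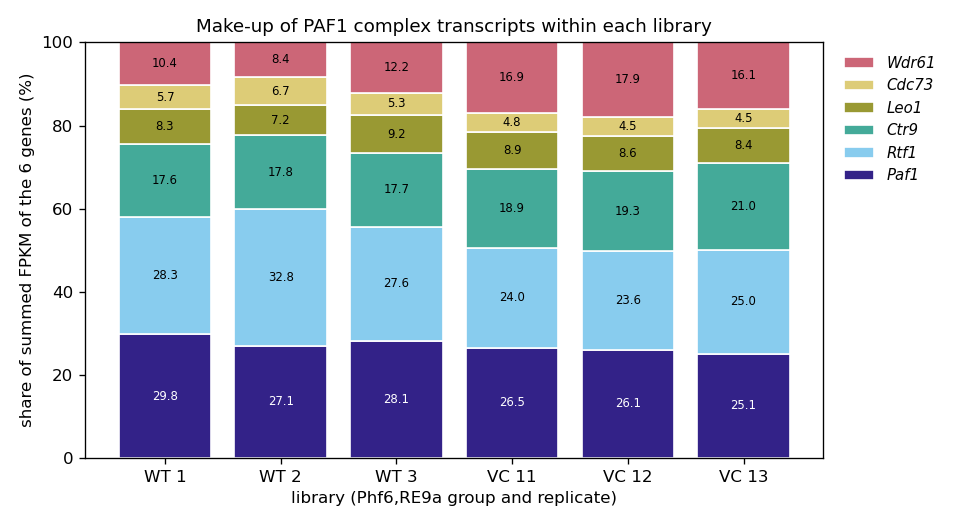
Share of each gene in the summed FPKM of the 6 PAF1 complex genes (vertical axis, %), 1 bar per library. *Wdr61* takes 8.44% to 12.2% in the 3 WT libraries and 16.1% to 17.9% in the 3 VC libraries, and *Rtf1* takes 27.6% to 32.8% and 23.6% to 25.0%.

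Of the 15 ratios between members, that of *Cdc73* to *Wdr61* shifted most, from a geometric mean of 0.573 in WT cells to 0.271 in VC cells (-1.08 on the log2 scale), and that of *Rtf1* to *Wdr61* went from 2.89 to 1.43 (-1.01). The ratio of *Paf1* to *Wdr61* was 2.77 and 1.53. In contrast, *Cdc73* and *Rtf1* kept a ratio of 0.198 and 0.189 with overlapping groups, a change of -0.07 on the log2 scale. Of the ratios, 12 of 15 did not overlap between the groups, beside 57.4% of the ratios between all pairs of tested genes with a count in every library. The 15 ratios share 6 genes and are not independent.

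Genes with the pattern nearest to each member were taken as the tested gene with the smallest root mean square difference in centred log2 CPM over the 6 libraries. The nearest to *Wdr61* was *Gmnn* (difference 0.030), which encodes geminin, an inhibitor of DNA replication licensing. For *Rtf1* it was *Atrx* (0.022), a chromatin remodeler gene, and for *Cdc73* it was *Ppp1r12a* (0.011), which encodes a myosin phosphatase subunit. *Ctr9* lay nearest to *Bak1* (0.018), a gene of mitochondrial apoptosis, *Leo1* to *Enoph1* (0.019), an enzyme gene of methionine salvage, and *Paf1* to *Gm46209* (0.015). The median difference from a member to all genes ranged from 0.333 to 0.529. None of the members was the nearest gene of another.

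Proliferation genes, a list of 15, were read as well. With edgeR 7 were higher, beside 21.5% of all genes tested, and 8 did not pass. With DESeq2 9 were higher, and 0 were lower with either or at an unadjusted p under 0.05. The median log2 fold change of the list was 0.47, against 0.01 over all genes. Its summed level was 3355, 2690 and 4057 CPM in WT replicates 1, 2 and 3, and 4587, 4631 and 4359 CPM in VC replicates 11, 12 and 13. *Birc5*, which encodes survivin, was the called gene with the smallest p (0.79, adjusted p = 0.00706 with edgeR), and *Pcna*, the sliding clamp gene, was the gene with the highest FPKM (-0.08, adjusted p = 0.634). The number of genes called higher ran from 1 without VC replicate 12 to 13 without WT replicate 3. The part of proliferation in the levels of the PAF1 complex genes was not tested.

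The PAF1 complex works among other factors that release, feed and mark the elongating polymerase, and 77 genes in 10 lists were compared, the 3 genes of the SKI complex among them. Of the 73 tested, 10 were higher, 18 were lower and 45 did not pass in VC cells. Their median log2 fold change was -0.02. Over all genes tested, 21.5% were higher and 22.7% lower. DSIF, the histone chaperones SPT6 and FACT, and TFIIS help the polymerase through nucleosomes and pauses. Among 9 of these genes 1 was higher, *Supt4a* of DSIF (0.47, adjusted p = 0.0136 with edgeR, and 0.058 without VC replicate 11), and 3 were lower, led by *Tcea2*, a TFIIS gene (-2.43, adjusted p = 0.000528). *Tcea2* had 4.66 to 6.69 CPM in WT cells and 0.827 to 1.22 CPM in VC cells. *Ssrp1* of FACT had the highest FPKM and did not pass (0.24, adjusted p = 0.173), although it did without WT replicate 3 (0.38, adjusted p = 0.0148).

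Pause release was mixed. None of the 4 genes of NELF, which holds the polymerase near the start site, passed the test with edgeR or DESeq2, and 2 were higher at an unadjusted p under 0.05. *Nelfb* had the highest FPKM (0.15, adjusted p = 0.217), and 1 or 2 genes were called higher with another scaling, a stricter filter or without WT replicate 3. P-TEFb is the kinase that ends the pause and is held inactive by the 7SK particle. Of its 8 genes 1 was higher and 3 were lower, beside 21.5% and 22.7% of all genes tested. *Ccnt1*, which encodes cyclin T1, rose by 0.52 (adjusted p = 0.00516 with edgeR) and *Hexim1*, an inhibitor gene, fell by 1.19 (adjusted p = 0.00235) on the log2 scale. *Mepce*, which caps 7SK RNA and had the highest FPKM of the list, was close to the threshold (-0.44, adjusted p = 0.0498), its groups overlapped, and its call was lost in 10 of 14 alternatives.

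The super elongation complex joins P-TEFb to ELL proteins, and the log2 fold changes of its genes ran from -1.19 to 2.09. The highest, of *Mllt3*, had an adjusted p of 0.0242 with edgeR and a standard error of 0.60. *Mllt3* had 37 to 227 counts in WT cells and 317 to 866 counts in VC cells. Its spread within groups was at the percentile 98.5 of all genes. *Ell3* with at most 5 counts was not tested. Of the 8 tested genes 2 were higher and 3 were lower, beside 21.5% and 22.7% of all genes tested. The scaffold gene *Aff4* had 764, 775 and 559 CPM in WT cells and 314, 286 and 318 CPM in VC cells. Its log2 fold change was -1.19 (adjusted p = 0.000507 with edgeR). *Eaf1*, which encodes an ELL-associated factor, was lower by the same measure (-1.19, adjusted p = 0.00048), and *Ell2*, an elongation factor gene, was higher (0.82, adjusted p = 0.000445). Each of these changes was larger than that of *Wdr61*.

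Of 13 subunit genes of RNA polymerase II itself 5 were higher, 1 was lower and 7 did not pass. The shares over all genes tested were 21.5% higher and 22.7% lower. The median log2 fold change of the 13 genes was 0.28, against 0.01 over all genes tested. Of the 13 estimates 12 were above 0, which held under every scaling and filter and became 11 without WT replicate 2. The catalytic subunit gene *Polr2a* was the lower one, at 425, 464 and 489 CPM in WT cells and 369, 378 and 358 CPM in VC cells (-0.32, adjusted p = 0.0219 with edgeR). That call was lost under scaling by total counts alone (-0.17, adjusted p = 0.209) and without VC replicate 11, 12 or 13 (adjusted p = 0.0836, 0.0619 and 0.0869). *Polr2f*, a small subunit gene that the polymerases share, rose by 1.06 (adjusted p = 0.00192). *Polr2m*, listed with them by name, had the highest FPKM (0.28, adjusted p = 0.139). Among the CTD kinase genes, which modify the tail of the polymerase, *Ccnk* for cyclin K was lower (-0.28, adjusted p = 0.034 with edgeR) and had the highest FPKM, and the other 5 of 6 did not pass. The call of *Ccnk* was lost in 6 of 14 alternatives, among them leaving out any VC library.

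Genes for H2B ubiquitin and for H3 methylation were covered by 3 lists as RNA levels, and the marks themselves were not measured. None of the 5 genes that write H2B ubiquitin passed with edgeR or DESeq2, 0 at an unadjusted p under 0.05, and their log2 fold changes ran from -0.15 for *Rnf20*, the ligase gene, to -0.10 for *Rnf40*, its partner. *Ube2b*, a conjugating enzyme gene, had the highest FPKM (-0.13, 95% interval -0.35 to 0.08, adjusted p = 0.278). With scaling by total counts alone, 4 of the 5 writers were above 0. The erasers differed more, with 1 higher, 3 lower and 1 not passing of 5 tested among 8 genes. The shares over all genes tested were 21.5% higher and 22.7% lower. *Usp22*, the H2B deubiquitinase gene of SAGA, was lower (-0.55, adjusted p = 0.00345), *Atxn7l3*, its activator gene with the highest FPKM, was near the threshold (-0.21, adjusted p = 0.046, lost in 9 of 14 alternatives), and *Eny2* of the same module was higher (0.88, adjusted p = 0.000573). Of 12 genes for H3K4, H3K36 and H3K79 methylation 0 were higher (2 at an unadjusted p under 0.05, and 0 with DESeq2) and 2 were lower, led by *Ash2l* (-0.59, adjusted p = 0.00419), a core subunit of MLL-type complexes. *Cxxc1*, which directs SETD1 to CpG islands, had the highest FPKM (-0.10, adjusted p = 0.394).

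**Figure D5:**
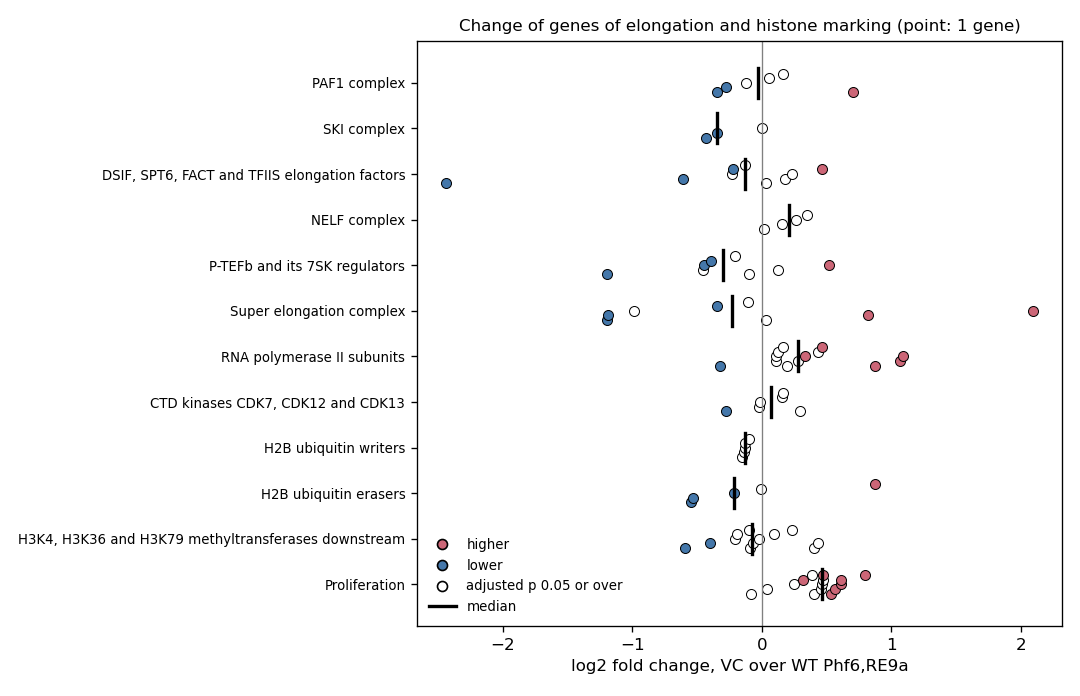
Log2 fold change of VC cells over WT cells (horizontal axis) of each tested gene in the PAF1 complex and 11 other lists; red and blue points passed an adjusted p of 0.05 with edgeR, white points did not, and the black bar is the median of the list. The PAF1 complex genes span -0.34 to 0.71, the 5 writers of H2B ubiquitin -0.15 to -0.10, and the super elongation complex genes -1.19 to 2.09.

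Genes that other work ties to the PAF1 complex were read last. *Hoxa9* had 1 to 4 counts and *Cspg5* 3 to 13 counts per library, too few to test. *Meis1*, a homeobox gene, had 66, 77 and 80 counts in WT cells and 68, 155 and 35 counts in VC cells, so that replicates 12 and 13 lay on both sides of the other group (0.08, 95% interval -1.04 to 1.19, adjusted p = 0.914 with edgeR). *Myc* had 65.7, 74.2 and 137 CPM in WT cells and 258, 255 and 285 CPM in VC cells (1.53, standard error 0.26, adjusted p = 0.00265). *Ccnd1*, which encodes cyclin D1, had 5 to 16 counts and 23 to 41 counts (1.48, standard error 0.45, adjusted p = 0.0296). Its call was lost without WT replicate 1 or 2 or without VC replicate 11 or 13 (adjusted p = 0.0865, 0.0754, 0.111 and 0.0587), and its level reached at most 2.42 CPM. These genes were listed with earlier results of these data known.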

How the data were processed

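Illumina TruSeq RNA libraries were sequenced as paired ends, and 1 table of the whole series was deposited. It holds read counts per gene that the authors made with a counter, annotation and strand setting not given in the sources used here. The submitters' processing notes name Bowtie 0.12.0 and mm8, but 98.33% of 54495 gene identifiers had the start and end of GENCODE M21, so coordinates are given on GRCm38. The deposited FPKM values equal the authors' counts divided by gene length and by a library size that is constant over genes. This size was not the total counts. It was 15405791 against total counts of 16817994 in WT replicate 1, and 17287188 against 16095424 in VC replicate 12. FPKM were thus already scaled between libraries beyond total counts. The gene length equalled the merged exons of 98.01% of genes. The authors' own comparison columns, made with DESeq2, hold normalized signal per group, p-values and log2 fold changes, were deposited too and were not used.

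In R 4.3.3, counts were filtered (filterByExpr), scaled by TMM and compared over all 6 libraries with the quasi-likelihood test of edgeR 4.0.16, with Benjamini-Hochberg adjustment over all 14169 genes tested and a threshold of 0.05. CPM were scaled by TMM, and log2 CPM used a prior count of 2. Alternatives were DESeq2 1.42.0, other scalings and filters, limma 3.58.1 on log2(FPKM + 1) and log2(FPKM + 0.1), and leaving out each library. Shares used an exact permutation test. Scripts were tested on simulated data. The depth is given with the results, and intervals and limits cover counting error only where they rest on counts of 1 library. Near-identical stretches to the protein-coding transcripts of the members were searched with blastn 2.17.0 at 90% identity. The members and the lists were chosen with earlier results of these data known. Named genes were the 6 members, *Phf6*, and in each list the called gene with the smallest p in each direction and the gene with the highest FPKM. Further named genes were all SKI complex genes, the 5 genes tied to the complex, genes overlapping a member, and the nearest gene to each member. *Rnf20*, *Rnf40* and *Mllt3* were added after their values were seen. Experiments on cell lines, colonies and proteins were not analysed here.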

Additional observations from a re-analysis of the deposited data

How the results depend on the processing

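No paired analysis was possible because the replicate numbers of the groups (1 to 3 and 11 to 13) do not overlap. Of the 6 members, 1 was called higher and 2 lower. With total counts and no scaling factor, which raised the median log2 fold change of all genes by 0.15 and turned 3047 higher and 3213 lower genes into 4048 and 2474, the members had 2 higher and 0 lower, the 10 elongation, histone and SKI lists 20 higher and 11 lower instead of 10 and 18, and *Paf1* (0.023), *Ube2b* (0.017), *Cxxc1* (0.053) and *Pcna* (0.064) changed sign. Under that scaling 4 of the 5 H2B ubiquitin writers, *Ube2b* among them, were above 0, against 0 with TMM. With limma on log2(FPKM + 1) and on log2(FPKM + 0.1), 1 member was lower each time. Leaving out 1 library, the members called ranged from 0 to 1 higher and from 0 to 2 lower, and the lists from 6 to 15 higher and from 12 to 19 lower. No member was higher without VC replicate 12, 1 was lower without VC replicate 11 or 12 and 0 without VC replicate 13, and the lists had 6 higher without VC replicate 11. With 5 libraries, 4690 to 6470 genes were called in all, against 6260 with 6. *Hbs1l* changed sign with DESeq2 (-0.0043), RLE scaling (-0.0054), no filter (-0.00090) and limma (-0.0042 and -0.0044), and ran from -0.029 to 0.036 with 1 library left out. *Meis1* changed sign with limma (-0.0019 and -0.11) and ran from -0.65 to 0.45, *Leo1* from -0.082 to 0.20, and *B3galt2* from -0.72 to 0.069. The cause was not tested. DESeq2, RLE and upper-quartile scaling and both filters kept the call of all 6 members, and *Phf6* kept its call in all 14 alternatives. The share per longest coding transcript was added after seeing the data. Both groups have 3 libraries, so that changes as small as those of *Paf1*, *Ctr9* and *Leo1* cannot be told from 0 at this spread.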
